A study of Arabidopsis thaliana with 6 samples.

Results

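The D-type cyclins of Arabidopsis thaliana, 10 genes from CYCD1;1 to CYCD7;1, were followed in ovules of wild-type plants and of the sgd mutant. The members were taken by locus identifier, and all 10 are among the 30457 features listed for every library. All 10 symbols matched those of RefSeq at the same loci. The family falls into 7 groups by the first digit of the name: the CYCD3 group holds 3 genes, the CYCD4 group 2 and each other group 1. The family was chosen by the FPKM of these same 6 libraries, in that its wild-type and sgd levels were known when it was picked, so the members' differences between genotypes are given as a description and not as a test.

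There were 3 wild-type libraries and 3 sgd libraries, each of polyadenylated RNA from ovules at the FG1-FG3 stage, the first part of embryo sac growth. Plants of both genotypes carried the qrt1 background, in which the pollen grains of a tetrad stay together, and grew in a greenhouse with 16 h of light and 8 h of dark at 22 °C. The design text gives about 6000 ovules without saying per what, and the sources used here do not name the gene behind sgd. The labels number the libraries of each genotype 1 to 3 but do not state separate plants, so p-values measure the spread between these libraries, which may be technical.

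D-type cyclins couple growth and hormone signals to the start of the cell cycle. They bind the kinase CDKA;1, which CDK-activating kinases switch on and the KRP and SIM proteins hold back, and the complex phosphorylates the retinoblastoma protein RBR1. Phosphorylated RBR1 releases E2F-DP factors, which then switch on genes of DNA replication. In ovules, growth of the integuments depends on such divisions, and the CYCD3 genes are known for keeping cells of growing organs dividing in response to cytokinin.

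Most D-type cyclins reach RBR1 through a short stretch named LxCxE (leucine, any residue, cysteine, any residue, glutamate) near the start of the protein. This stretch was searched in the longest RefSeq coding sequence of each member and was found in 7 of 10. In all 7 it began within the first 50 codons, where 0.379% of 27415 protein-coding genes carry it. The 5 codons of the motif are in capitals below, in the 5′ to 3′ direction of the coding strand, with up to 15 coding bases on either side, and positions refer to the RefSeq assembly TAIR10.1. They are shown because they part the family into genes that do and do not carry the RBR1-binding stretch.
CYCD1;1 (AT1G70210), chr1:26440063-26440107, plus strand: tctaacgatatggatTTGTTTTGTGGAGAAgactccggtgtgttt
CYCD2;1 (AT2G22490), chr2:9555832-9555873, minus strand: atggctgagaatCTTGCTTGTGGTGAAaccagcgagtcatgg
CYCD3;1 (AT4G34160), chr4:16357951-16357995, plus strand: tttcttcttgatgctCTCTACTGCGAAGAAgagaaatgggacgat
CYCD3;2 (AT5G67260), chr5:26836358-26836402, plus strand: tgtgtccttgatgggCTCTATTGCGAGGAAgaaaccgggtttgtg
CYCD3;3 (AT3G50070), chr3:18566583-18566627, minus strand: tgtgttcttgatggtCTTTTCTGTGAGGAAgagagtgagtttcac
CYCD4;1 (AT5G65420), chr5:26143694-26143738, minus strand: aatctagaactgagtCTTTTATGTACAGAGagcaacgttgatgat
CYCD7;1 (AT5G02110), chr5:417087-417125, plus strand: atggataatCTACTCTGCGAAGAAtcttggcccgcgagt

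CYCD4;2 (AT5G10440), CYCD5;1 (AT4G37630) and CYCD6;1 (AT4G03270) held no match. The CYCD4 pair had the most alike coding sequences of the family, with 76.8% of bases identical over aligned codons, and the first 57 bases of the member without the motif are printed for comparison.
CYCD4;2 (AT5G10440), chr5:3282286-3282342, minus strand: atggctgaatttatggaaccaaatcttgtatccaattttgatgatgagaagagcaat
The next most alike pair was CYCD3;2 and CYCD3;3, at 75.4%, and the third gene of their group stood at 57.7% and 57.4% to them.

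Levels are given as deposited, in FPKM, a fragment count divided by transcript length and library depth, and so can be compared between genes. The fragments mapped per library were estimated from the steps between low values as 25800000 to 40300000 in wild type, 24100000 in sgd library 1 and 14200000 and 13200000 in sgd libraries 2 and 3. Libraries 1 of both genotypes stood apart: their FPKM summed to 528715 and 561173 against 750410 to 796250 in the others, and organelle loci held 2.18% and 2.08% of it against at most 0.0733%. Values are therefore also compared between libraries of the same number. Bulk RNA cannot tell fewer cells of a type from less RNA per cell.

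In wild type the CYCD3 and CYCD1 genes led the family. CYCD3;3 stood highest at 139 ± 47.8 FPKM (SD, n = 3), followed by CYCD3;2 at 72.3 ± 11.9 and CYCD1;1 at 31.3 ± 5.92 FPKM. These 3 did not overlap with each other or with the genes below them. The next were CYCD3;1 at 18.3 ± 5.44 and CYCD4;1 at 16.9 ± 2.91 FPKM, which could not be ordered, since the first was the higher in only 1 of 3 libraries. The second CYCD4 gene and those of CYCD5 and CYCD2 also lay within their spread of one another, at 7.67 ± 2.49, 6.78 ± 2.14 and 6.09 ± 0.881 FPKM. Of these, the CYCD4 gene was above the CYCD5 gene in all 3 libraries, and the CYCD5 gene above the CYCD2 gene in 2 of 3. The CYCD6 gene followed at 3.99 ± 1.20 FPKM, below the CYCD2 gene in all 3 libraries although their ranges touched. The CYCD7 gene, known for the division of the guard mother cell in stomata, came last at 0.373 ± 0.251 FPKM.

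In sgd the same genes led, and the lower end of the order differed. CYCD3;3 at 119 ± 47.1 and CYCD3;2 at 106 ± 34.6 FPKM overlapped, the first being higher in 2 of 3 libraries, and CYCD1;1 followed at 25.1 ± 11.2 FPKM. Then came the first CYCD4 gene, CYCD2, the second CYCD4 gene, CYCD7 and CYCD5, at means from 8.21 to 3.57 FPKM, and each of these overlapped with the next. The CYCD6 gene stood at 0.507 ± 0.333 FPKM, below all of these in every library, and CYCD3;1 was listed at 0.

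**Figure D1:**
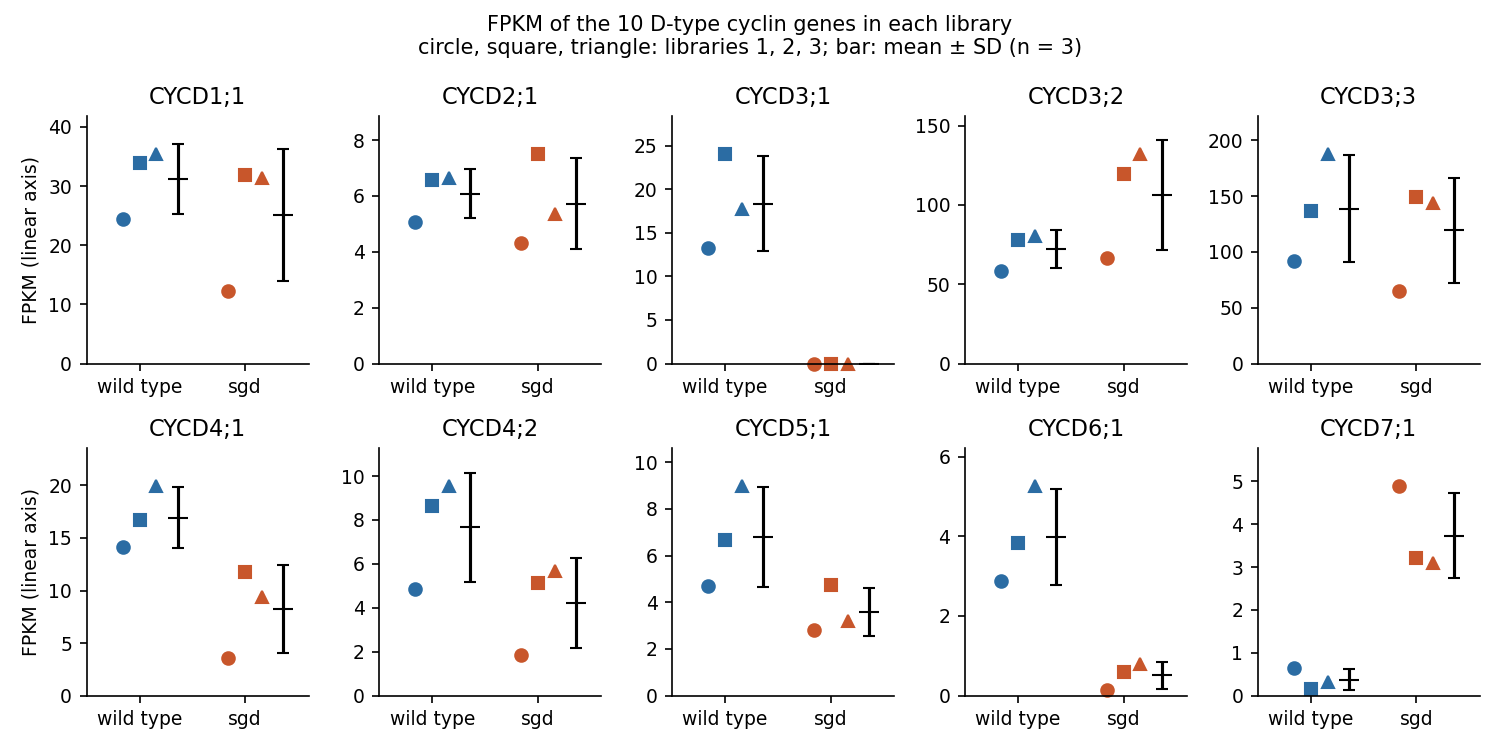
FPKM (linear axes from 0, a scale for each gene) of the 10 D-type cyclin genes in wild-type (blue) and sgd (orange) libraries, with circles, squares and triangles for libraries 1, 2 and 3 and bars for mean ± SD (n = 3). The sgd points of CYCD3;1 lie at 0, those of the CYCD6 gene and of CYCD4;1 lie below all wild-type points, and those of the CYCD7 gene lie above them.

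CYCD3;1, which keeps cells in division and delays their switch to endoreduplication, gave 13.2, 24.0 and 17.7 FPKM in wild-type ovules (libraries in the order 1, 2, 3, here and below) and was listed at 0 for each sgd library. The groups thus lay apart. For its transcript of 1874 bases the wild-type values correspond to an estimated 574, 1361 and 1153 fragments, and a single fragment would have added 0.0246, 0.0462 and 0.05 FPKM to the sgd values. Of the 9880 features at 10 FPKM or more in all wild-type libraries, it was the only 1 listed at 0 in all sgd libraries, and 4 features showed the reverse. A listed 0 in a file without counts can be a failed estimate, so no fold is given.

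The genes beside CYCD3;1 on chromosome 4, taken by position alone, kept their signal in sgd or were higher there, apart from 2 genes below 1 FPKM in every library. AT4G34150, of a calcium-dependent lipid-binding family, precedes it, with 23.6, 24.4 and 35.9 FPKM in wild-type and 52.3, 196 and 189 FPKM in sgd ovules. AT4G34140, before that gene, ran from 9.42 to 13.5 FPKM in wild-type and from 22.6 to 26.9 FPKM in sgd ovules. Both were called higher (limma adjusted p = 0.0118 and 0.0225), as were 13.3% of all tested features. On the other side AT4G34180, of a cyclase family, ran from 21.1 to 33.3 FPKM in wild-type and from 41.4 to 48.8 FPKM in sgd ovules. SEP1, a floral MADS-box gene beyond it, ran from 22.1 to 36.3 and from 30.1 to 48.8 FPKM. Neither AT4G34180 nor SEP1 passed (limma adjusted p = 0.151 and 0.427). AT4G34170, the nearest gene on that side, was listed at 0 for 5 libraries and at 0.08 FPKM for wild-type library 3. No neighbour at 1 FPKM or more in wild type was therefore low in sgd.

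The other CYCD3 genes kept high levels in both genotypes. CYCD3;2 gave 58.7, 77.8 and 80.5 FPKM in wild-type ovules against 66.8, 119 and 132 FPKM in sgd. Each sgd library was above the wild-type library of its number, although the groups overlapped, and the difference in log2(FPKM + 1), sgd minus wild type, was 0.50 (SE 0.34). CYCD3;3 gave 92.4, 136 and 188 FPKM in wild-type ovules against 65.0, 149 and 144 FPKM in sgd, lower in libraries 1 and 3 and higher in library 2, with a log2 difference of -0.25 (SE 0.41). The ratio of the first to the second within a library, which no scaling between libraries can change, was 0.635, 0.570 and 0.428 in wild type and 1.03, 0.801 and 0.917 in sgd. It was higher in every sgd library, whereas the single levels of this closely related pair overlapped. How often the ratios of other gene pairs lie apart was not tested.

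Both CYCD4 genes, known from the root pericycle and the stomatal lineage, had lower values in sgd. CYCD4;1 gave 14.1, 16.7 and 19.9 FPKM in wild-type ovules against 3.57, 11.7 and 9.34 FPKM in sgd, with no overlap and a log2 difference of -1.07 (SE 0.37). The difference was smallest in the pair of libraries numbered 2, at -0.48, and largest in those numbered 1, at -1.73. CYCD4;2 gave 4.85, 8.62 and 9.54 FPKM in wild-type ovules against 1.86, 5.13 and 5.68 FPKM in sgd, a log2 difference of -0.78 (SE 0.37). Its groups overlapped through wild-type library 1 alone, and each sgd library lay below the wild-type library of its number. The ratio of the first to the second was 2.91, 1.94 and 2.09 in wild type and 1.92, 2.28 and 1.64 in sgd and overlapped, so in this pair, of which one gene carries the LxCxE codons, a shift in balance was not detected.

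The CYCD1 and CYCD2 genes, described in germinating seeds and in roots, overlapped between genotypes. CYCD1;1 gave 24.5, 33.9 and 35.4 FPKM in wild-type ovules against 12.2, 31.9 and 31.3 FPKM in sgd, a log2 difference of -0.40 (SE 0.37). CYCD2;1 gave 5.07, 6.56 and 6.63 FPKM against 4.31, 7.5 and 5.35 FPKM, a log2 difference of -0.10 (SE 0.27). In both genes the lowest value was that of sgd library 1. Without that library alone the differences were 0.03 and 0.06, and that of CYCD3;3 was 0.14. Without both libraries numbered 1 the differences of these 3 were -0.13, -0.05 and -0.13, so their sign changed with which libraries were left out.

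The CYCD5 and CYCD6 genes were modest in wild type and lower in sgd. CYCD5;1, tied to endoreduplication in leaves, gave 4.69, 6.68 and 8.97 FPKM in wild-type ovules against 2.79, 4.73 and 3.18 FPKM in sgd, a log2 difference of -0.75 (SE 0.30). Each sgd library lay below its wild-type counterpart, and the groups overlapped by the narrow margin of wild-type library 1 and sgd library 2. CYCD6;1 is known from roots, where it drives the division that parts cortex from endodermis under SHORT-ROOT and SCARECROW. It gave 2.87, 3.83 and 5.26 FPKM in wild-type ovules against 0.14, 0.59 and 0.79 FPKM in sgd, an estimated 105, 182 and 286 fragments against 5, 11 and 13. The groups lay apart, with the sgd mean at 12.7% of the wild-type mean and a log2 difference of -1.72 (SE 0.32). Differences between same-numbered libraries were close to each other at -1.76, -1.60 and -1.81.

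The CYCD7 gene ran the opposite way. CYCD7;1 gave 0.65, 0.16 and 0.31 FPKM in wild-type ovules against 4.89, 3.22 and 3.10 FPKM in sgd, an estimated 19, 6 and 13 fragments against 132, 44 and 39. The groups lay apart, and the log2 difference was 1.78 (SE 0.30), with 1.84, 1.86 and 1.65 between same-numbered libraries. On this scale the added 1 FPKM shrinks differences of low genes, and with 0.1 FPKM added they were 3.12 for this gene and -2.91 for the CYCD6 gene.

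Some pollen genes were higher in the same sgd libraries. Of 8 such markers 5 were tested and 3 rose, the pectin methylesterase gene VGD1 and the arabinogalactan protein genes AGP6 and AGP11, and none of the 5 fell (limma, 0 lower and 4 higher at an unadjusted p under 0.05). Of all 18100 tested features 13.3% rose and 4.47% fell, with 3876 higher and 1596 lower at an unadjusted p under 0.05. The summed level of the 8 ran from 9.81 to 21.8 FPKM in wild type and from 61.0 to 140 FPKM in sgd, while DUO1, a regulator of the male germ line, was at 0.21 FPKM or less in all libraries. HAP2, a sperm gene below the filter, had the opposite order, with 0.83, 1.28 and 1.36 FPKM in wild-type ovules against 0.22, 0.48 and 0.16 FPKM in sgd. MGH3, also below the filter and named after its values were seen, was higher in sgd, at 0.29, 0.06 and 0.11 against 0.86, 0.56 and 0.63 FPKM. GEX1 was at 0.840 ± 0.291 and 2.32 ± 0.392 FPKM without overlap. It did not pass (limma adjusted p = 0.0688) but rose with the block (0.0310), as did 26.5% of all features. Among stomatal regulators known to act upstream of D-type cyclins, MUTE was listed at 0 for all 6 libraries and FAMA was at 0.10 FPKM or less. FLP and MYB88, named after their values were seen, had signal in both genotypes. FLP had means of 31.2 FPKM in wild type and 24.4 FPKM in sgd and overlapped. MYB88 had means of 4.28 and 2.1 FPKM without overlap. It did not pass (limma adjusted p = 0.101) but fell with the replicate number as a block (limma adjusted p = 0.0324). The part of other cells in the CYCD7 values was not tested.

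**Figure D2:**
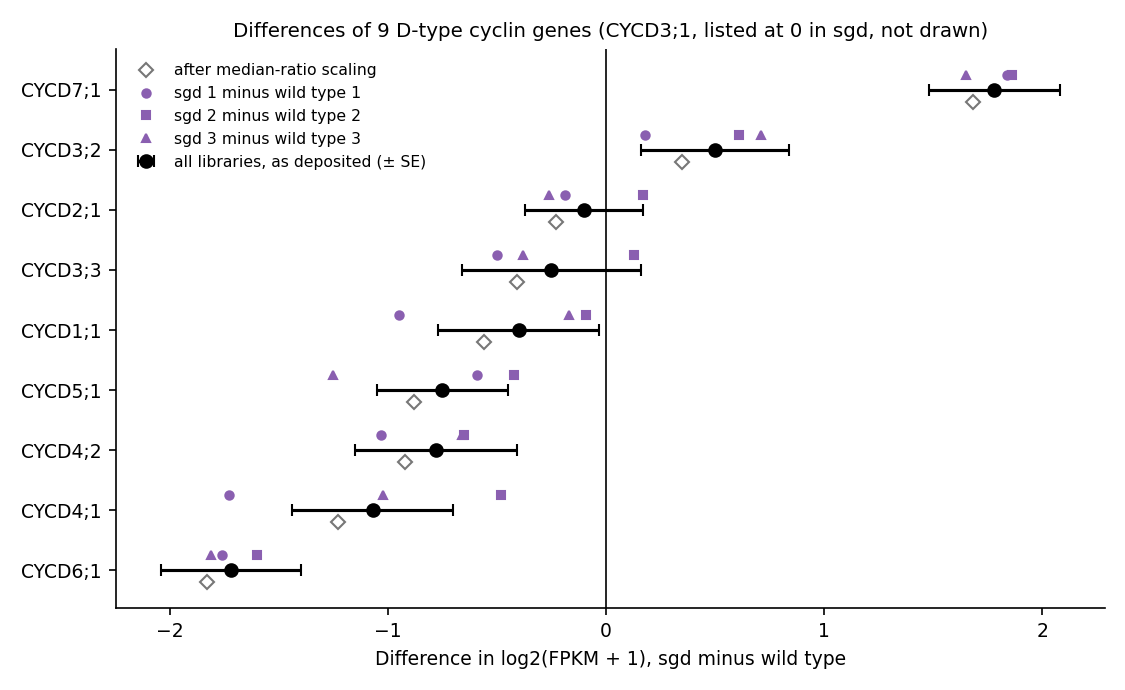
Difference in log2(FPKM + 1), sgd minus wild type, of 9 D-type cyclin genes: black points with SE from the fit over all 6 libraries, open diamonds after median-ratio scaling, violet marks for each pair of same-numbered libraries. The CYCD7 gene at 1.78 and the CYCD6 gene at -1.72 stand at the ends with their pairs close together, whereas CYCD4;1 ranges from -1.73 to -0.48 between pairs.

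Across the family, 8 of 10 members had a lower mean in sgd, 5 of the 7 with LxCxE codons and all 3 without them. The log2 difference was below 0 for the same 8, and for 7433 of the 18100 tested features. All 10 members passed the filter of a mean of 1 FPKM over the 6 libraries. In the limma fit over all 18100 tested features, with Benjamini-Hochberg adjusted p under 0.05, CYCD3;1 and the CYCD6 gene were called lower and the CYCD7 gene higher, 2 and 1 of 10. Of all tested features 17.8% were called, 4.47% lower and 13.3% higher. The groups did not overlap for 3 members that were lower and 1 that was higher, where 8.80% and 26.8% of tested features did so. As the members were chosen with this contrast known, nothing is read from these counts.

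The library numbers in the labels were taken to pair the samples, and with the replicate number as a block 5 members were called lower and 2 higher, beside 14.3% and 26.5% of all features. The added members were both CYCD4 genes and the CYCD5 gene, lower, and CYCD3;2, higher. The same members were called without both libraries numbered 1, beside 17.5% and 32.2% of all features. After median-ratio scaling, which moved the median difference of all features from 0.13 to -0.017, 5 members were lower and 1 higher, beside 18.7% and 19.1% of all features. Those counts were the same with equal totals (14.5% and 22.8%), quantile normalization (20.6% and 17.4%) and median-ratio scaling with the block (20.2% and 19.5%). With a filter of 5 FPKM, which leaves the CYCD6 and CYCD7 genes untested, 1 member was lower and none higher, beside 3.81% and 11.6% of features.

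Relative to the median of 0.13 of all features, the log2 differences were -1.85 for the CYCD6 gene, -1.20 and -0.91 for the CYCD4 genes, -0.88 for the CYCD5 gene, 0.37 for CYCD3;2 and 1.65 for the CYCD7 gene. The calls of CYCD3;1 and of the CYCD6 and CYCD7 genes stood in each alternative in which they were tested. CYCD4;1 was also called without sgd library 2, beside 5.68% of features lower and 10.6% higher.

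The summed level of the family overlapped between genotypes, but parts of its make-up did not. The 10 genes summed to 221, 315 and 372 FPKM in wild-type ovules and to 162, 333 and 335 FPKM in sgd. The CYCD3 genes together held 75.6% ± 1.30 of the sum in wild type and 81.6% ± 0.950 in sgd (SD, n = 3), even with one of them listed at 0. CYCD3;2 held 26.5%, 24.7% and 21.6% in wild type and 41.3%, 35.8% and 39.5% in sgd, with no overlap, whereas CYCD3;3 held 45.2% ± 4.63 and 42.6% ± 2.27 and overlapped. Within the CYCD4 group the first gene held 5.69% ± 0.612 in wild type and 2.84% ± 0.656 in sgd, and the second was also lower in every sgd library, at 1.46% ± 0.283. The CYCD6 gene held 1.31% ± 0.0954 and 0.167% ± 0.0752, and the CYCD7 gene 0.143% ± 0.132 and 1.64% ± 1.20. Shares within a library do not depend on scaling between libraries, but a share also moves when another member does.

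**Figure D3:**
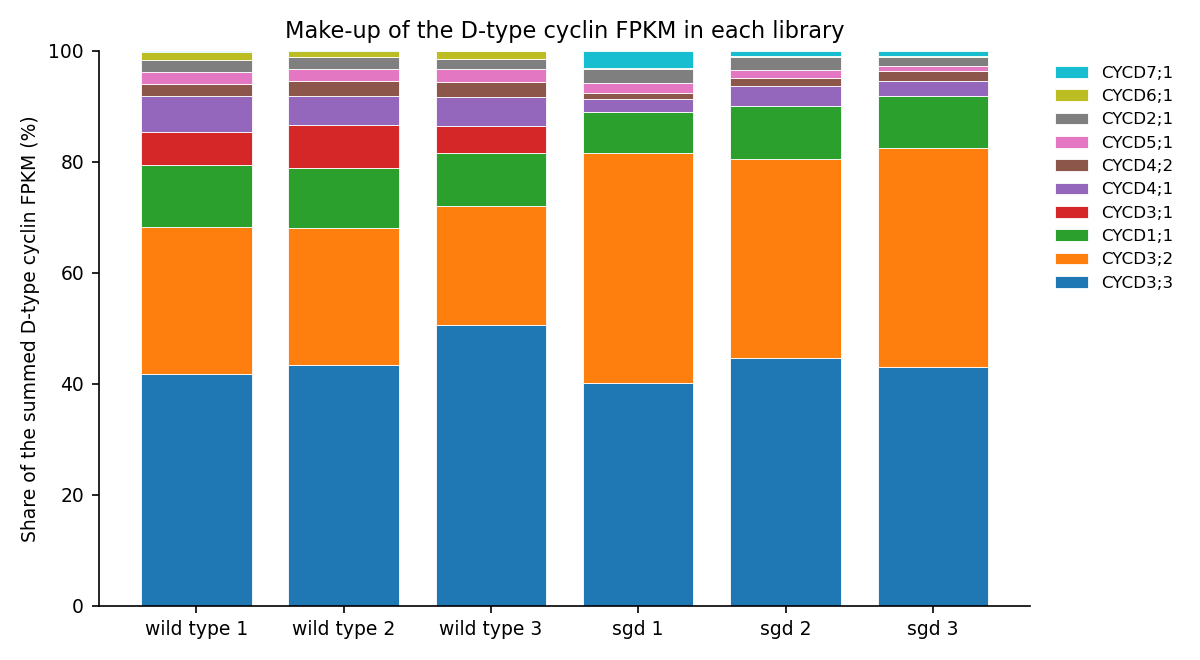
Share (%) of the summed FPKM of the 10 D-type cyclin genes held by each gene, 1 bar per library. The orange CYCD3;2 part is 21.6% to 26.5% in wild type and 35.8% to 41.3% in sgd, and the red CYCD3;1 part of 4.76% to 7.64% is present in wild-type bars only.

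Profiles most like those of CYCD3;1, and of CYCD3;3 as the most abundant member, were sought among all tested features by the root mean square difference of centred log2(FPKM + 1) over the 6 libraries. Nearest to the first were AT5G47600, of an HSP20-like chaperone family, at 0.324, and AT1G55260, of a lipid-transfer family, at 0.383. The methionine sulfoxide reductase gene MSRB9 followed at 0.420, the carboxypeptidase gene BRS1 at 0.484 and AT1G26795, of a self-incompatibility S1 family, at 0.550. All 5 were below 10 FPKM in every sgd library, and none was listed at 0 there. AT5G47600 gave 42.2, 39.5 and 36.3 FPKM in wild-type ovules against 1.89, 1.73 and 1.22 FPKM in sgd. The 5 nearest to CYCD3;3, AT3G13190, AT1G53035, AT4G19550, AT2G42650 and AT1G04430, lay at 0.0616 to 0.0794 and were likewise lowest in library 1 of each genotype.

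Partners of the D-type cyclins were compared as a list of 18 genes, all tested: kinases and their activators, RBR1, the E2F and DP factors and WEE1. Of these 2 fell, none rose and 16 did not pass (limma, 0 higher and 5 lower at an unadjusted p under 0.05). Of all 18100 tested features 4.47% fell and 13.3% rose, with 1596 lower and 3876 higher at an unadjusted p under 0.05. With the replicate block 14.3% and 26.5% of all features fell and rose, here and for the lists below. CDKD;1, a CDK-activating kinase, dropped to 1.37 ± 0.709 FPKM in sgd from 5.43 ± 1.61 in wild type, a log2 difference of -1.46 (SE 0.33, limma adjusted p = 0.0130). DEL1, an atypical E2F that holds back endoreduplication, dropped to 4.21 ± 2.15 from 10.5 ± 2.18 FPKM, a log2 difference of -1.22 (SE 0.35, limma adjusted p = 0.0374). CKS2, a CDK-binding subunit, was at 115 ± 42.1 and 49.8 ± 23.8 FPKM and DEL3, another atypical E2F, at 12.8 ± 3.20 and 6.89 ± 2.76 FPKM, neither past the threshold (limma adjusted p = 0.0785 and 0.113). With the replicate block 7 fell and 1 rose, among them CKS2 and DEL3 (limma adjusted p = 0.00875 and 0.0131). The median log2 difference of the list was -0.53 once the median of all features was subtracted.

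The direct partners, singled out after their values were seen, overlapped between genotypes. The kinase gene CDKA;1 ran from 29.7 to 47.6 FPKM in wild-type and from 46.5 to 66.6 FPKM in sgd ovules, and RBR1 was at 41.0 ± 3.90 and 34.7 ± 4.16 FPKM. The kinase gene did not pass (limma adjusted p = 0.299) but rose with the block (adjusted p = 0.0175). The call of DEL1 ended when wild-type library 1, 2 or 3 was left out (limma adjusted p = 0.0777, 0.0925 and 0.128), without sgd library 3 (0.0564) and when low genes were kept (0.0967). That of the CDK-activating kinase ended without wild-type library 3 (limma adjusted p = 0.0671).

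Of 12 CDK inhibitor genes 10 were tested, of which 1 fell, none rose and 9 did not pass (limma, 1 higher and 2 lower at an unadjusted p under 0.05). Of all features 4.47% fell and 13.3% rose. KRP3 gave 10.3, 15.2 and 19.2 FPKM in wild-type ovules against 0.84, 3.97 and 2.94 FPKM in sgd, a log2 difference of -2.22 (SE 0.39, limma adjusted p = 0.00330). Its groups lay apart, and its call stood in all alternatives. KRP6 was at 14.4 ± 5.50 and 5.43 ± 2.83 FPKM (limma adjusted p = 0.0553), SMR1 at 0.780 ± 0.385 and 2.74 ± 1.44 FPKM (adjusted p = 0.0795) and KRP1 at 4.45 ± 1.28 and 7.69 ± 2.66 FPKM (adjusted p = 0.181). With the block 3 fell, KRP6 among them, and SMR1 rose, so genes for inhibitors of the same complexes stood on both sides. The list's median, less that of all features, was -0.30.

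Genes known as E2F targets, at the end of the pathway, differed one way. All 18 had lower values in sgd, 7 fell, none rose and 11 did not pass (limma, 0 higher and 17 lower at an unadjusted p under 0.05), and 18 fell with the block. The share of all features that fell was 4.47%, and 14.3% with the block. TSO2, a ribonucleotide reductase subunit, had a log2 difference of -1.42 (SE 0.36), and the licensing genes CDC6 and CDT1A differed by -1.14 and -1.24 (SE 0.32 and 0.37). ORC1A, of the origin recognition complex, dropped to 1.17 ± 0.530 FPKM from 3.26 ± 0.329 in wild type (limma adjusted p = 0.0409). The list's median, less that of all features, was -1.22. The number that fell changed with the libraries and genes fitted. It was 0 without any 1 of wild-type libraries 1, 2 and 3. Without sgd library 1, 2 or 3 it was 5, 15 and 1, and it was 1 when low genes were kept. It was 18 with equal totals, median-ratio scaling, quantile normalization or without both libraries numbered 1.

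Other cyclins, of types A, B and P and the meiotic SDS, numbered 27, of which 22 were tested, 7 fell, 1 rose and 14 did not pass. The shares of all features that fell and rose were 4.47% and 13.3%. The B-type cyclins of mitosis CYCB1;4, CYCB2;2 and CYCB1;2 had log2 differences of -1.57, -1.32 and -1.70 (SE 0.35, 0.32 and 0.43), with limma adjusted p = 0.0113, 0.0180 and 0.0208. CYCP4;1, a P-type cyclin, was at 0.83, 1.72 and 2.21 FPKM in wild-type ovules and rose to 5.93, 6.69 and 5.50 FPKM in sgd (limma adjusted p = 0.00641). Like the CYCD7 gene it was low in wild type and higher in every sgd library. With the block 14 fell and 1 rose, and the list's median, less that of all features, was -1.12. Falls numbered 3 without wild-type library 1, 1 without wild-type library 2 or 3 or when low genes were kept, 13 without sgd library 2, 16 with median-ratio scaling and 17 without both libraries numbered 1.

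**Figure D4:**
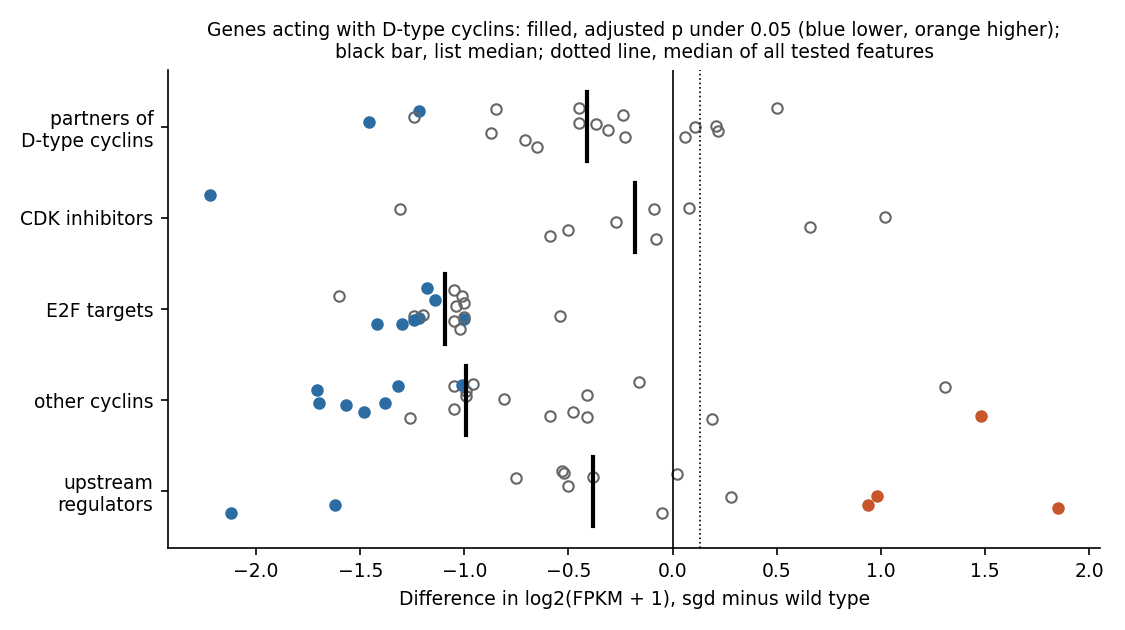
Difference in log2(FPKM + 1), sgd minus wild type, of the tested genes of 5 lists around the D-type cyclins, 1 circle per gene, filled where the limma adjusted p is under 0.05 (blue lower, orange higher), with vertical position within a list arbitrary. Black bars mark list medians and the dotted line the median of all tested features at 0.13. The E2F targets all lie left of 0 and the upstream regulators on both sides.

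Genes known to act upstream of D-type cyclins in some tissue went both ways: of 17 genes 13 were tested, 2 fell, 3 rose and 8 did not pass. Among all features 4.47% fell and 13.3% rose. ANT, which maintains CYCD3 expression and the growth of integuments, gave 62.0, 92.6 and 98.5 FPKM in wild-type ovules against 8.87, 25.7 and 26.3 FPKM in sgd (limma adjusted p = 0.00577). SHR, the SHORT-ROOT factor upstream of the CYCD6 gene in roots, gave 66.9, 89.9 and 94.8 FPKM against 13.9, 38.4 and 34.0 FPKM (limma adjusted p = 0.0159). Of the CYCD3 genes only CYCD3;1 was low in sgd, whereas CYCD3;2 and CYCD3;3 overlapped between genotypes. Whether ANT or SHR had a part in the level of any member was not tested. TCP14, a growth regulator, rose to 25.7 ± 3.86 FPKM from 6.38 ± 0.860 (limma adjusted p = 0.000760), and the cytokinin receptor gene AHK3 rose to 39.7 ± 4.88 from 19.6 ± 2.52 FPKM (adjusted p = 0.0225). The third to rise, named after its values were seen, was ARR1, a cytokinin response factor, at 22.4 ± 2.98 and 44.1 ± 6.34 FPKM. SCR, the SCARECROW gene, chosen after its values were seen, did not pass (limma adjusted p = 0.191, and 0.0298, lower, with the block). With the block 5 fell and 3 rose, and the list's median, less that of all features, was -0.50.

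The calls of the cytokinin genes AHK3 and ARR1 were the weakest of these. Both ended without wild-type library 2 (limma adjusted p = 0.0852 and 0.0876), wild-type library 3 (0.0786 and 0.122) or sgd library 3 (0.102 and 0.144), and that of ARR1 also without wild-type library 1 (0.0551) or sgd library 2 (0.0550). Those of ANT, SHR and TCP14 stood in each alternative.

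Markers of the tissue and of other cells were read beside the family. Of 9 ovule genes 7 were tested and 2 fell, BEL1 and ANT, the latter also counted among the upstream regulators. Of all tested features 4.47% fell and 13.3% rose, and 14.3% and 26.5% with the block, here and for the other markers. The ovule genes had a summed level of 713 to 1417 FPKM in wild type and 469 to 885 FPKM in sgd. STK, SHP1 and SHP2 made up most of that sum and went different ways. In wild type and sgd, STK was at 610 ± 233 and 236 ± 107 FPKM, SHP1 at 148 ± 31.6 and 234 ± 49.8 and SHP2 at 159 ± 43.4 and 148 ± 44.3. None passed (limma adjusted p = 0.0818, 0.234 and 0.891), but with the block STK fell and SHP1 rose (0.00456 and 0.00874). WUS was at 0.03 FPKM or less in all libraries, and SPL was at 1.27 ± 0.120 FPKM in wild type (SD, n = 3) and at most 0.07 FPKM in sgd. Tapetum genes summed to at most 0.34 FPKM in any library, with 3 of 5 at 0 throughout. Carpel genes summed to 78.4 to 144 FPKM in wild type and 57.2 to 70.9 FPKM in sgd, 2 of 4 tested fell, and none of the 8 was at 0 in all libraries. STY1, at 70.3 ± 33.2 FPKM in wild type and 5.24 ± 3.61 in sgd, fell. RPL went the other way, at 42.9 ± 2.43 and 56.5 ± 6.56 FPKM without overlap. It did not pass (limma adjusted p = 0.365) but rose with the block (0.0427). Stomatal lineage genes summed to 16.2 to 19.9 and 3.99 to 14.9 FPKM, and of 2 tested EPF2 fell. Whether the share of any cell type had a part in the D-type cyclin differences was not tested.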

How the data were processed

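RNA of ovules from 3 wild-type and 3 sgd libraries was deposited by the authors as FPKM per gene, with 2 decimals (unit per the file headers). The build TAIR10 and, in no stated role, CASAVA, cutadapt 1.15, TopHat2 2.1.1, RSEM and DESeq2 are named per the submitters' processing notes. The annotation, strand setting and filters are not given in the sources used here. RSEM divides reads between similar copies, and wrong division would move levels between members.

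FPKM are not counts. Features with a mean of at least 1 FPKM (18100) were fitted with limma 3.58.1 in R 4.3.3 (lmFit, eBayes with trend) on log2(FPKM + 1), two-sided, Benjamini-Hochberg adjusted over all of them, at 0.05. The added 1 FPKM understates changes of low genes. The fit was tested on simulated data. Fragments were estimated by fitting depth and fragment length so that low values of genes with 1 transcript became whole numbers (94.4% to 98.0% fell within 0.2 of one). These fragment numbers are estimates, so no counting interval is given.

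Members and lists were chosen with earlier results of these data known. List entries (92 of 98, markers aside) were kept where RefSeq gave the symbol at that locus. CYCA3;1 is counted in both the E2F targets and the other cyclins. The same rule kept 8 of 9 pollen and 5 of 6 tapetum markers and all other markers. Named genes are all members, up to 4 per list with the smallest p, and the 5 nearest profiles to CYCD3;1 and to the most abundant member. Sequences came from RefSeq TAIR10.1 by locus (Biopython 1.88). The deposited files hold no coordinates, so none were joined. The labels' numbers were taken to pair the libraries. Deviations from group means correlated at 0.524, 0.236 and 0.377 across genes between libraries numbered 1, 2 and 3. Crossed pairs 2 and 3 reached 0.431 and 0.354, so these values set apart only the libraries numbered 1 and cannot show that 2 and 3 are pairs.

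Alternatives were 0.1 and 0.01 FPKM added, no filter, a mean of 5 FPKM, equal totals, median-ratio scaling, quantile normalization, the replicate block alone and with median-ratio scaling, eBayes without a trend, each library left out, and both libraries numbered 1 left out.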

Additional observations from a re-analysis of the deposited data

How the results depend on the processing

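The lower and higher counts of D-type cyclins (2 and 1) moved to 5 and 2 with the replicate block or without both libraries numbered 1, to 5 and 1 with equal totals, median-ratio scaling (alone or with the block) or quantile normalization, and to 1 and 0 with a filter of 5 FPKM, which leaves CYCD6;1 and CYCD7;1 untested. With 1 library left out they were 2 to 3 and 1 to 1. Single differences of the members reversed no called direction, and 5 moved by more than the spread between libraries: CYCD6;1 and CYCD7;1 with 0.1 FPKM (-2.91 and 3.12) and 0.01 FPKM added (-3.22 and 3.47), and CYCD7;1 after quantile normalization (1.47). Of all features 809 were lower and 2407 higher. These became 2583 and 4793 with the block, 2626 and 4129 with equal totals, 3391 and 3465 with median-ratio scaling, 3663 and 3525 with that and the block, 3726 and 3146 with quantile normalization, and 3156 and 5797 without both libraries numbered 1, and ranged from 382 to 1022 and 1514 to 3505 with 1 library left out. Partners that fell or rose (2 and 0) became 7 and 1, 10 and 1, 11 and 1, 12 and 0, 12 and 1, and 8 and 1 in the same order, 1 lower with no filter or with 5 FPKM, and 0 to 4 lower and 0 higher with 1 library left out. Inhibitors (1 and 0) became 3 and 1 in each of the first 4 of these, 4 and 0 with quantile normalization, 4 and 1 without both libraries numbered 1 and 2 and 0 with 5 FPKM, and ranged from 1 to 2 and 0 to 1. E2F targets that fell (7) became 18 in all 6, 1 with no filter, and 0 to 15 with 1 library left out. Other cyclins (7 and 1) became 14 lower with the block or equal totals, 16 with median-ratio scaling alone or with the block, 17 with quantile normalization, 17 and 2 without both libraries numbered 1, 1 lower with no filter and 0 higher with 5 FPKM, and ranged from 1 to 13 and 1 to 2. Regulators (2 and 3) became 5, 5, 6, 6, 7 and 6 lower in the order above, and higher ones ranged from 1 to 3. The block ended no call of a named member, list gene or marker and, beside those given with the results, changed no other call of one. The cause of these moves was not tested, apart from the filter, which changes which genes are tested. There were 3 libraries a genotype, and sgd libraries 2 and 3 were shallower than the rest. CYCD6;1 rests on as few as 5 estimated fragments, in sgd library 1, and CYCD7;1 on as few as 6, in wild-type library 2.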
